A study of Mus musculus with 22 samples.

Results

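The genes described here are 45 genes of the actin cytoskeleton: the actins, the proteins that bind, bundle, cap and move actin filaments, adhesion and LIM-domain proteins, a pair of intermediate filament genes, and Srf, which encodes serum response factor. They were chosen by name, as known cytoskeletal, contractile and serum response factor target genes, but with earlier results of these data known. They were looked up in 22 expression arrays of mouse embryonic stem (ES) cells. Each name was matched to the probe sets annotated with that symbol alone, and the probe set with the highest mean over the 22 arrays stood for the gene. All 45 were found among the 18193 genes measured in this way. No filter on low values was applied.

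The cells were of the Rex1GFPd2 line, which carries a destabilised green fluorescent protein at the locus of the pluripotency gene Rex1 (Zfp42), and were grown in serum-free medium with N2 and B27 supplements. All groups were given PD0325901 (PD), which inhibits MEK, and all were transfected with an siRNA, so no untreated cells entered the comparisons. In the 2i control arm the cells received siControl#1 (4 arrays) or siControl#2 (3 arrays) and stayed in 2i medium, which holds PD together with the GSK3 inhibitor CHIR99021 (CHIR). In the PD-only control arm the same control siRNAs were used (4 and 3 arrays), and the cells were moved 24 hours after transfection to medium with PD alone. The last arm, PD-only siYAP/TAZ, received siYAP/TAZ#1 or siYAP/TAZ#2 (4 arrays each) against the transcriptional coactivators YAP (Yap1) and TAZ (Wwtr1) and the same move to PD alone. All cells were harvested 72 hours after transfection. Because the PD-only medium was reached by a change of medium and 2i was not, removal of CHIR and the change itself cannot be told apart. The labels call the samples of a group biological replicates A to D without saying whether they came from separate days, so p-values measure the spread between these samples, which may be technical. YAP/TAZ siRNA in 2i was not analysed here.

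Actin filaments are polymers of a family of near-identical proteins: beta- and gamma-actin (Actb, Actg1) are found in all cells, while the alpha-actins and smooth muscle gamma-actin (Acta1, Acta2, Actc1, Actg2) are best known from muscle. Myosin II slides the filaments, tropomyosins and calponins coat them, filamins and alpha-actinins crosslink them, and vinculin, zyxin and LIM proteins couple them to adhesion sites. Many of these genes are targets of Srf, which binds a DNA motif called the CArG box together with the cofactors MRTF-A and MRTF-B, proteins that monomeric actin holds in the cytoplasm. YAP and TAZ, which act through TEAD factors, are in turn known to respond to tension in the actin cytoskeleton.

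Promoter sequences are shown because the list was drawn up around Srf targets and the CArG box is the motif that defines them. RefSeq windows (build GRCm38.p6) of 300 bases, from 250 bases before an annotated start to 50 after it, were found for 39 members. The 6 without one were Actb, Actg2, Csrp2, Myh11, Tagln and Tgfb1i1. A CArG box, whose CC and GG ends enclose only A and T bases and which reads as such a box on both strands, lay in a window of 11 of the 39 members (28.2%), against 1.81% of 27025 genes in the whole table of windows. A TEAD motif, GGAATG or its reverse complement CATTCC, lay in a window of 13 members (33.3%), against 16.6% of all genes. The 11 members with a CArG box were Acta1, Actc1, Actg1, Cnn2, Fhl1, Fhl2, Lima1, Myl6, Myl9, Srf and Vcl. For Acta1, Actc1 and Cnn2 the 250 bases before the start are printed 5′ to 3′ in the direction of the gene, with the CArG box in capitals. In Acta1 the second run of capitals is a TEAD motif.
Acta1, chr8:123894776-123895025, minus strand: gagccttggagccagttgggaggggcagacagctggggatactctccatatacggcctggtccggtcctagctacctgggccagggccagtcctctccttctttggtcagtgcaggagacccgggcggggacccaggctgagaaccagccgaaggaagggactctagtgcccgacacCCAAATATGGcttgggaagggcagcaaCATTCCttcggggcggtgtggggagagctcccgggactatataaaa
Actc1, chr2:114052876-114053125, minus strand: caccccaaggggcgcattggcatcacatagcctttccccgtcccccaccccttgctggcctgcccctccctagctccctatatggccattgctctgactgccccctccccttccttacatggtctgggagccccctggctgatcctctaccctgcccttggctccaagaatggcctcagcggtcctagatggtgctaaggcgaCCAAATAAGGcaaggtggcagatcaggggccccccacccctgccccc
Cnn2, chr10:79988350-79988599, plus strand: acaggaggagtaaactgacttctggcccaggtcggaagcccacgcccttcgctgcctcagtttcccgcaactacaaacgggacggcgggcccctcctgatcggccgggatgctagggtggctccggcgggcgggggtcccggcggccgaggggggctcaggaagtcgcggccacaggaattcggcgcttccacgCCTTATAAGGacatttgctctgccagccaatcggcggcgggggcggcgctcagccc
For the other 8 members, stretches of 30 bases around the box are printed in the same way. Fhl2 has 2 boxes at separate annotated starts, and Srf has 2 boxes in 1 window.
Myl9, chr2:156775293-156775322, plus strand: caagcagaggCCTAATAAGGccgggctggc
Fhl2, chr1:43163973-43164002, minus strand: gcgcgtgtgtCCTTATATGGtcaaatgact
Fhl2, chr1:43196838-43196867, minus strand: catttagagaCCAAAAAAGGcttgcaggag
Vcl, chr14:20929161-20929190, plus strand: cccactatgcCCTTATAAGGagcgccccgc
Fhl1, chrX:56779571-56779600, plus strand: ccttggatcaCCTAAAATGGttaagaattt
Srf, chr17:46556215-46556244, minus strand: CCATATAAGGagcggcctcgCCATAAAAGG
Actg1, chr11:120348566-120348595, minus strand: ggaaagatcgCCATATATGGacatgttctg
Myl6, chr10:128493040-128493069, minus strand: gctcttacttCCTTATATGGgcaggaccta
Lima1, chr15:99820177-99820206, minus strand: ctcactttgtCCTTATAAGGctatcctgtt
Counted from the annotated start, the box began at base -73 in Acta1, -47 in Actc1, -56 in Cnn2, -161 in Myl9, -227 in Vcl, -102 in Fhl1, -90 in Actg1, -50 in Myl6 and -47 in Lima1, at -31 and -96 from the 2 starts of Fhl2, and at -82 and -62 in Srf. Such a match is a description of the letters and not a measured binding site. Members with a box had a median log2 difference of -1.04 between 2i control and PD-only control, and the 28 members whose windows held none had -1.08. Between siYAP/TAZ and PD-only control the medians were -1.50 and -1.12. For the 13 members with a TEAD motif and the 26 whose windows held none, the medians were -2.32 and -0.96 for 2i control, and -2.06 and -0.99 for siYAP/TAZ. Both motifs lay in windows of Acta1 and Vcl. Lima1, whose box has the same 10 bases as those of Cnn2 and Vcl, was the one member with a box that was higher in both.

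Values are log2 expression levels, so a difference of 1 is a change of 2-fold, and levels of different probe sets are not compared. The siRNA targets were checked first. Yap1 lay between 9.67 and 9.91 in the siYAP/TAZ arrays and between 11 and 11.07 in PD-only control, a difference of -1.27 ± 0.03 (SE), and Wwtr1 differed by -1.04 ± 0.03. In 2i control Yap1 and Wwtr1 were also slightly lower than in PD-only control (-0.15 ± 0.03 and -0.25 ± 0.03). Of the siRNAs of one kind, limma called 0 genes of the whole table between siControl#1 and siControl#2 in 2i, between the same siRNAs in PD-only, and between siYAP/TAZ#1 and siYAP/TAZ#2. At an unadjusted p of 0.05 these contrasts held 1450, 769 and 649 of all genes, and 3, 3 and 1 members. The largest member differences among them were -0.23 (Fhl2), -0.35 (Lmod1) and 0.19 (Myh11). Of 10 pluripotent ES cell markers, 8 were higher and 2 lower in 2i control than in PD-only control (31.3% and 26.7% of all genes). With siYAP/TAZ 5 were higher and 3 lower than in PD-only control (35.5% and 26.3%). Against 2i control 1 was higher with siYAP/TAZ and 7 were lower (25.5% and 22.8%). The marker mean per array was 12.36 to 12.42 in 2i control, 11.99 to 12.03 in PD-only control and 12.15 to 12.19 with siYAP/TAZ. Pou5f1 stood at a mean of 13.02 in 2i control, 12.58 in PD-only control and 13.02 with siYAP/TAZ. An index of RNA length that rests on Actb, itself a member, is given with that gene.

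Most of these genes stood highest in PD-only control, with the widest margins in Acta1, Tagln, Acta2, Actc1, Myl9 and Cnn1. In 2i control 41 of the 45 genes were lower than in PD-only control at a Benjamini-Hochberg adjusted p of 0.05 (limma), against 26.7% of all genes, 3 were higher (Lima1, Myh11 and Tpm3), against 31.3% of all genes, and Fhl3 was not called. Of the 45, 24 were lower by 2-fold or more, against 4.12% of all genes, and 1 was higher by 2-fold or more, against 1.69%. With siYAP/TAZ 39 genes were lower than in PD-only control (26.3% of all genes), 3 were higher (35.5%), and Csrp2, Pfn1 and Fhl3 were not called. There 25 were lower by 2-fold or more (4.47%) and 1 was higher (1.9%). Every 2i control array lay below every PD-only control array for 39 members (19% of all genes) and above for 2 (18.7%), with 4 overlapping. For siYAP/TAZ these numbers were 38 (19.3%), 2 (21.1%) and 5. The median difference of the members was -1.05 for 2i control and -1.22 for siYAP/TAZ, while the median of all genes was 0.04 and 0.06. Both differences use the same 7 PD-only control arrays, so they are given side by side and no overlap of their calls is given. In bulk RNA, fewer cells that express a gene and less of its RNA per cell cannot be told apart.

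**Figure D1:**
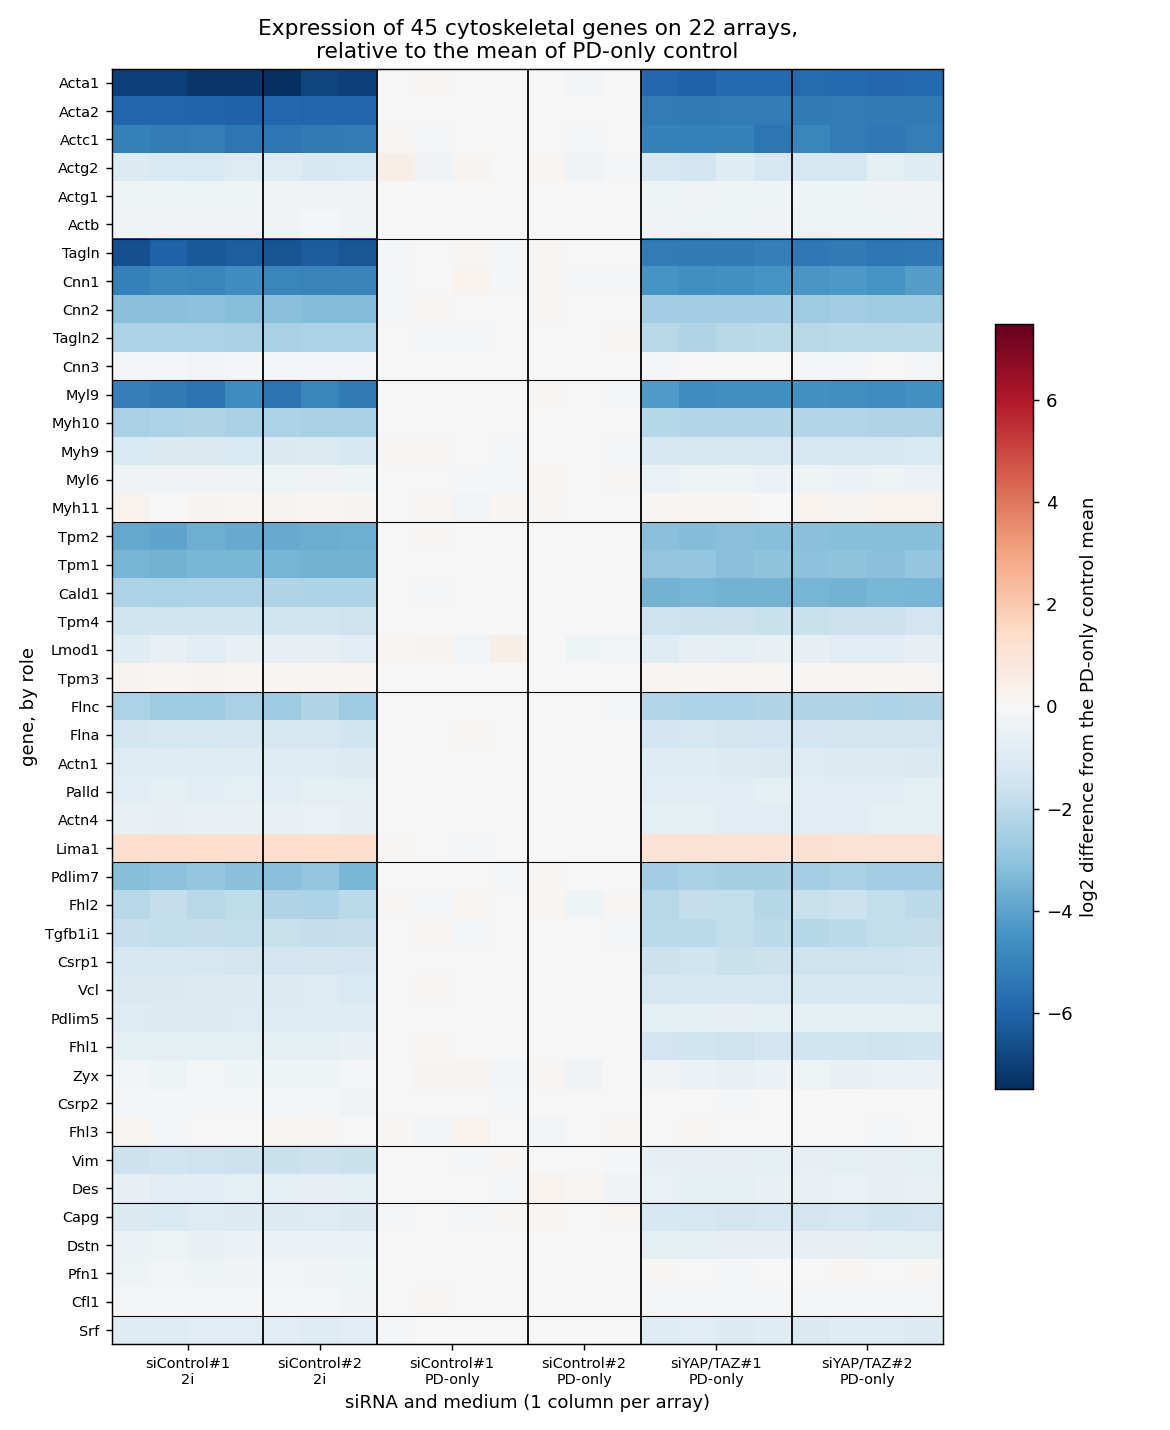
Log2 expression of the 45 genes (rows, grouped by role) on the 22 arrays (columns, grouped by siRNA and medium), drawn as the difference from the gene's mean over the PD-only control arrays. Blue marks lower and red higher values. Acta1, Acta2, Tagln, Actc1, Myl9 and Cnn1 are dark blue on every 2i control and siYAP/TAZ array, and Lima1 is the one row with a clear red shade.

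**Figure D2:**
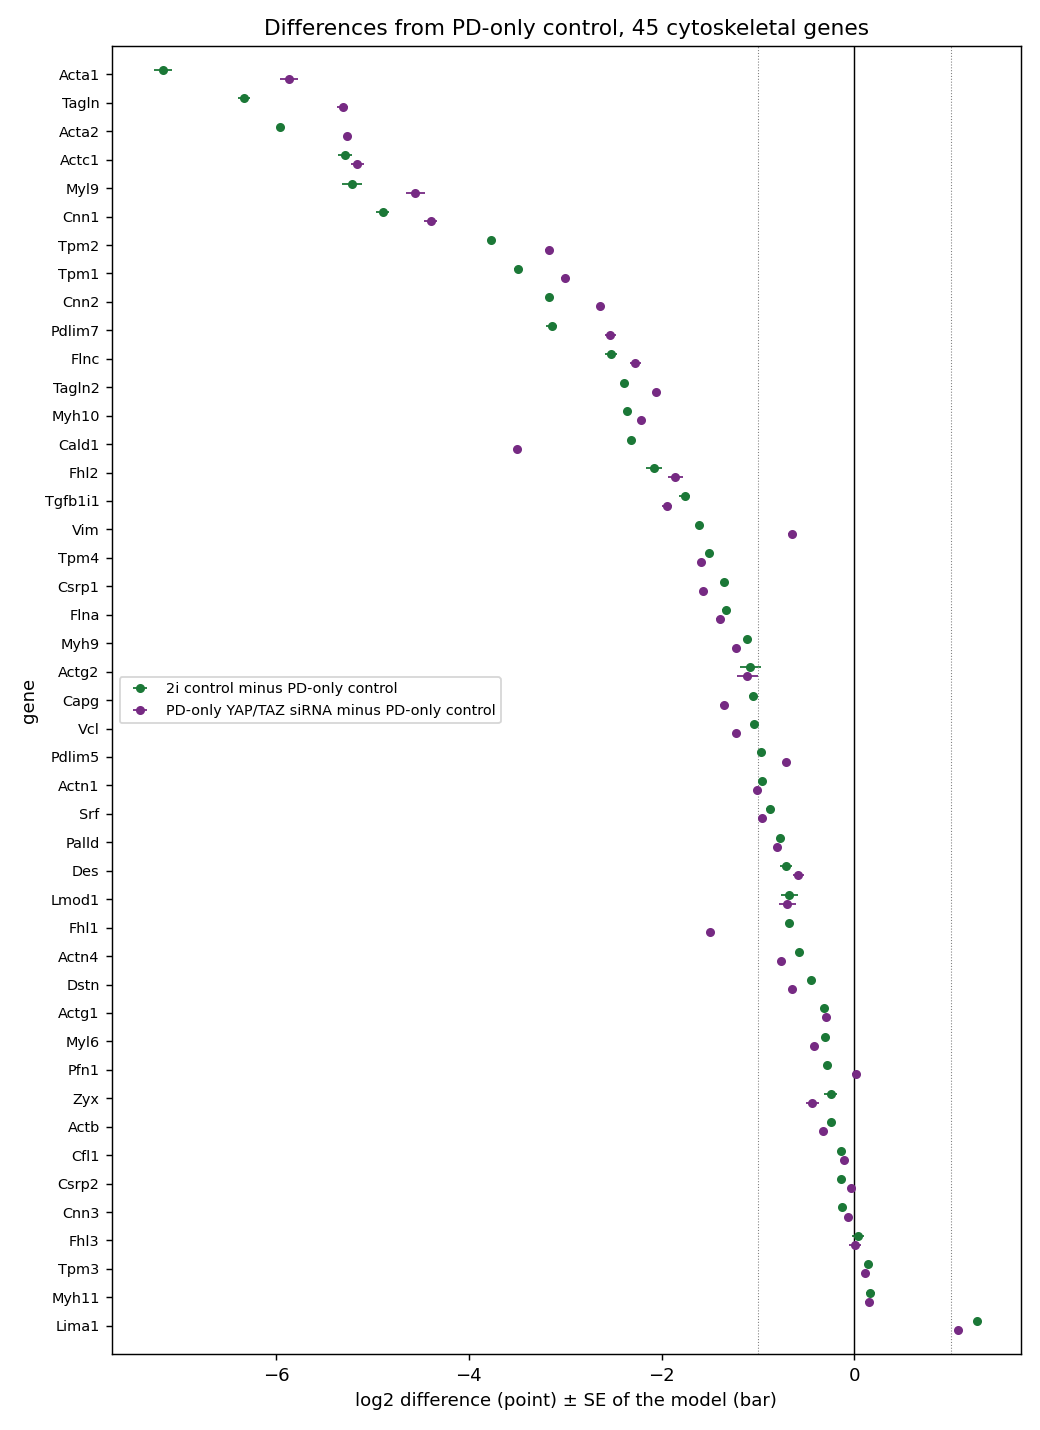
Log2 difference from PD-only control for each of the 45 genes (rows, ordered by the 2i difference), for 2i control (green) and PD-only siYAP/TAZ (purple). Points are model estimates, bars are SEs, and dotted lines mark 2-fold. The green points run from -7.17 (Acta1) to 1.27 (Lima1) and the purple points from -5.86 (Acta1) to 1.08 (Lima1).

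Among the 6 actins, all were lower in 2i control and with siYAP/TAZ than in PD-only control, but by very different amounts. Acta1, skeletal muscle alpha-actin, whose promoter is printed above, lay at 12.75, 12.98 and 13.05 in PD-only control (lowest, median and highest array), at 5.22, 5.94 and 6.09 in 2i control, and at 6.92, 7.12 and 7.18 with siYAP/TAZ. All PD-only control arrays were far above all others, and the 2i arrays were below the siYAP/TAZ arrays without overlap. The differences from PD-only control were -7.17 ± 0.10 for 2i (144-fold, adjusted p = 2.01e-22) and -5.86 ± 0.09 for siYAP/TAZ (58.1-fold, adjusted p = 2.4e-21).

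Acta2, smooth muscle alpha-actin, read 13.75, 13.81 and 13.86 in PD-only control, 7.77, 7.84 and 7.93 in 2i control and 8.50, 8.54 and 8.59 with siYAP/TAZ. Again the 3 arms did not overlap, with 2i control lowest. The fold was 62.4 for 2i and 38.5 for siYAP/TAZ. The probe set used for Acta2 is of the type marked for probes shared with other transcripts, as is that of Actg1, so signal from other actins cannot be separated in it. Its other probe sets were dim (means of 4.22 and 3.86 over all arrays), and differed by -2.02 and -1.10 in 2i control.

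For Actc1, cardiac alpha-actin, the arrays spanned 11.02 to 11.18 in PD-only control with a median of 11.11, 5.67 to 6.01 in 2i control with a median of 5.85, and 5.71 to 6.23 with siYAP/TAZ with a median of 5.96. Here 2i control and siYAP/TAZ overlapped. Differences from PD-only control were -5.28 ± 0.07 and -5.16 ± 0.07. Actg2, smooth muscle gamma-actin, was dim throughout, with arm means of 3.86, 4.95 and 3.82 in 2i control, PD-only control and siYAP/TAZ, and differed from PD-only control by -1.08 ± 0.11 and -1.11 ± 0.11. RMA gives no detection call, and 9 of the 24 members that were lower by 2-fold or more in 2i lay there below 6.635, the median level of all genes.

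The non-muscle actins moved little. Actb read 14.32, 14.35 and 14.39 in PD-only control, 14.06, 14.11 and 14.21 in 2i control and 13.98, 14.02 and 14.09 with siYAP/TAZ, so that no 2i or siYAP/TAZ array reached the PD-only range. The differences of -0.24 ± 0.03 and -0.32 ± 0.03 are a fold of 1.18 and 1.25. The other gene probe set of Actb differed by -0.16 in 2i control and by -0.07 with siYAP/TAZ, where it was not called. Actg1 spanned 14.13 to 14.19 in PD-only control (median 14.18), 13.80 to 13.88 in 2i control (median 13.84) and 13.85 to 13.89 with siYAP/TAZ (median 13.87), with differences of -0.32 ± 0.02 and -0.30 ± 0.02.

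Actb is also covered by 3 control probe sets along its transcript, which were not part of the gene's own value. Against PD-only control the 3′ set differed by -0.33 in 2i control and by -0.41 with siYAP/TAZ, the middle set by -0.47 and -0.55, and the 5′ set by -0.57 and -0.67. In all of these the PD-only control arrays lay above the others without overlap. The exact permutation p was 0.000583 for 2i control (7 against 7 arrays) and 0.000311 for siYAP/TAZ (8 against 7), the smallest values these tests can give, and 0.000874 after adjustment over 12 tests (two-sided). The gap between 3′ and 5′ sets was 0.72 ± 0.04 in PD-only control (SD, n = 7), 0.97 ± 0.10 in 2i control (n = 7) and 0.975 ± 0.06 in the siYAP/TAZ arm (n = 8), and the PD-only control arrays were below all others. The matching gap of Gapdh differed by less, with means of -0.07, -0.01 and -0.02. Its PD-only control arrays (-0.09 to -0.06) also lay below every 2i control array (-0.04 to 0.04). They overlapped the siYAP/TAZ arrays (-0.07 to 0.05). Poly-A spike controls averaged 8.52, 8.96 and 8.43 in the same order of arms. Every 2i control array (8.82 to 9.25) lay above every array of PD-only control (8.17 to 8.675) and of siYAP/TAZ (8.27 to 8.63). No alternative setting used the spikes as a covariate. With the Actb gap as a covariate in the fit, 39 members were lower in 2i control and 37 with siYAP/TAZ, and 22 and 24 were lower by 2-fold or more. Acta1 then differed by -7.44 and -6.14 and Srf by -0.89 and -0.97. The calls of Cfl1, Csrp2 and Myh11 were lost for 2i, and those of Cfl1, Cnn3 and Myh11 for siYAP/TAZ.

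**Figure D3:**
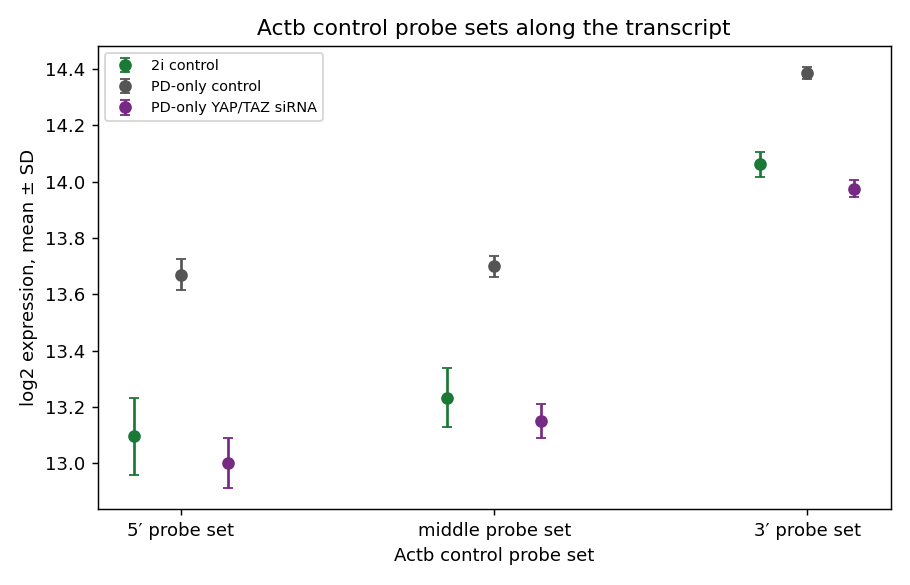
Log2 expression of the 5′, middle and 3′ control probe sets of Actb (mean and SD over arrays) in 2i control (n = 7), PD-only control (n = 7) and PD-only siYAP/TAZ (n = 8). PD-only control is highest at all 3 positions, and its distance from the other arms grows from the 3′ to the 5′ set. The axis does not start at 0.

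The calponin and transgelin family, small proteins that bind along actin filaments, was lower in 2i control in 5 of 5 genes and with siYAP/TAZ in 5 of 5, with medians of -3.17 and -2.64. Tagln, transgelin or SM22, a classic marker of smooth muscle, read 12.86, 12.94 and 13.07 in PD-only control, 6.39, 6.65 and 6.91 in 2i control and 7.54, 7.66 and 7.81 with siYAP/TAZ. The arms did not overlap, and the folds were 80.6 and 39.7. Cnn1, the calponin of differentiated smooth muscle, had a median of 9.56 in PD-only control (9.46 to 9.87), 4.72 in 2i control (4.54 to 4.99) and 5.20 with siYAP/TAZ (5.03 to 5.47). It was 29.8-fold and 21.0-fold lower in these arms than in PD-only control. Cnn2, a calponin of non-muscle cells, read 11.58, 11.67 and 11.81 in PD-only control against 8.44, 8.57 and 8.60 in 2i control and 9.01, 9.06 and 9.09 with siYAP/TAZ. Tagln2 differed by -2.39 ± 0.03 and -2.06 ± 0.03. Cnn3, bright in all arms, differed by -0.13 ± 0.02 and -0.07 ± 0.02, and its siYAP/TAZ call was lost in several of the alternative settings.

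Of the 5 myosin II genes, 4 were lower and Myh11 was higher in each comparison. Myl9, the regulatory light chain of smooth muscle and non-muscle myosin II, read 10.22, 10.29 and 10.36 in PD-only control, 4.76, 4.97 and 5.55 in 2i control and 5.60, 5.71 and 6.02 with siYAP/TAZ. All arms were separate, and the folds were 37.1 and 23.5. The non-muscle heavy chain Myh10 spanned 12.32 to 12.40 in PD-only control (median 12.36), 9.96 to 10.10 in 2i control (median 9.96) and 10.10 to 10.22 with siYAP/TAZ (median 10.14), with differences of -2.36 ± 0.03 and -2.21 ± 0.03. The other non-muscle heavy chain, Myh9, changed less (-1.11 ± 0.04 and -1.23 ± 0.03). Myl6, the essential light chain, differed by -0.30 ± 0.03 and -0.42 ± 0.03. Myh11, the smooth muscle heavy chain, was dim in every arm (means of 5.21, 5.05 and 5.20 in 2i control, PD-only control and siYAP/TAZ), with overlapping arrays and differences of 0.17 ± 0.05 and 0.15 ± 0.04. Its second probe set, dimmer still, differed by -0.92 and -0.71, so the direction of Myh11 depends on the probe set.

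**Figure D4:**
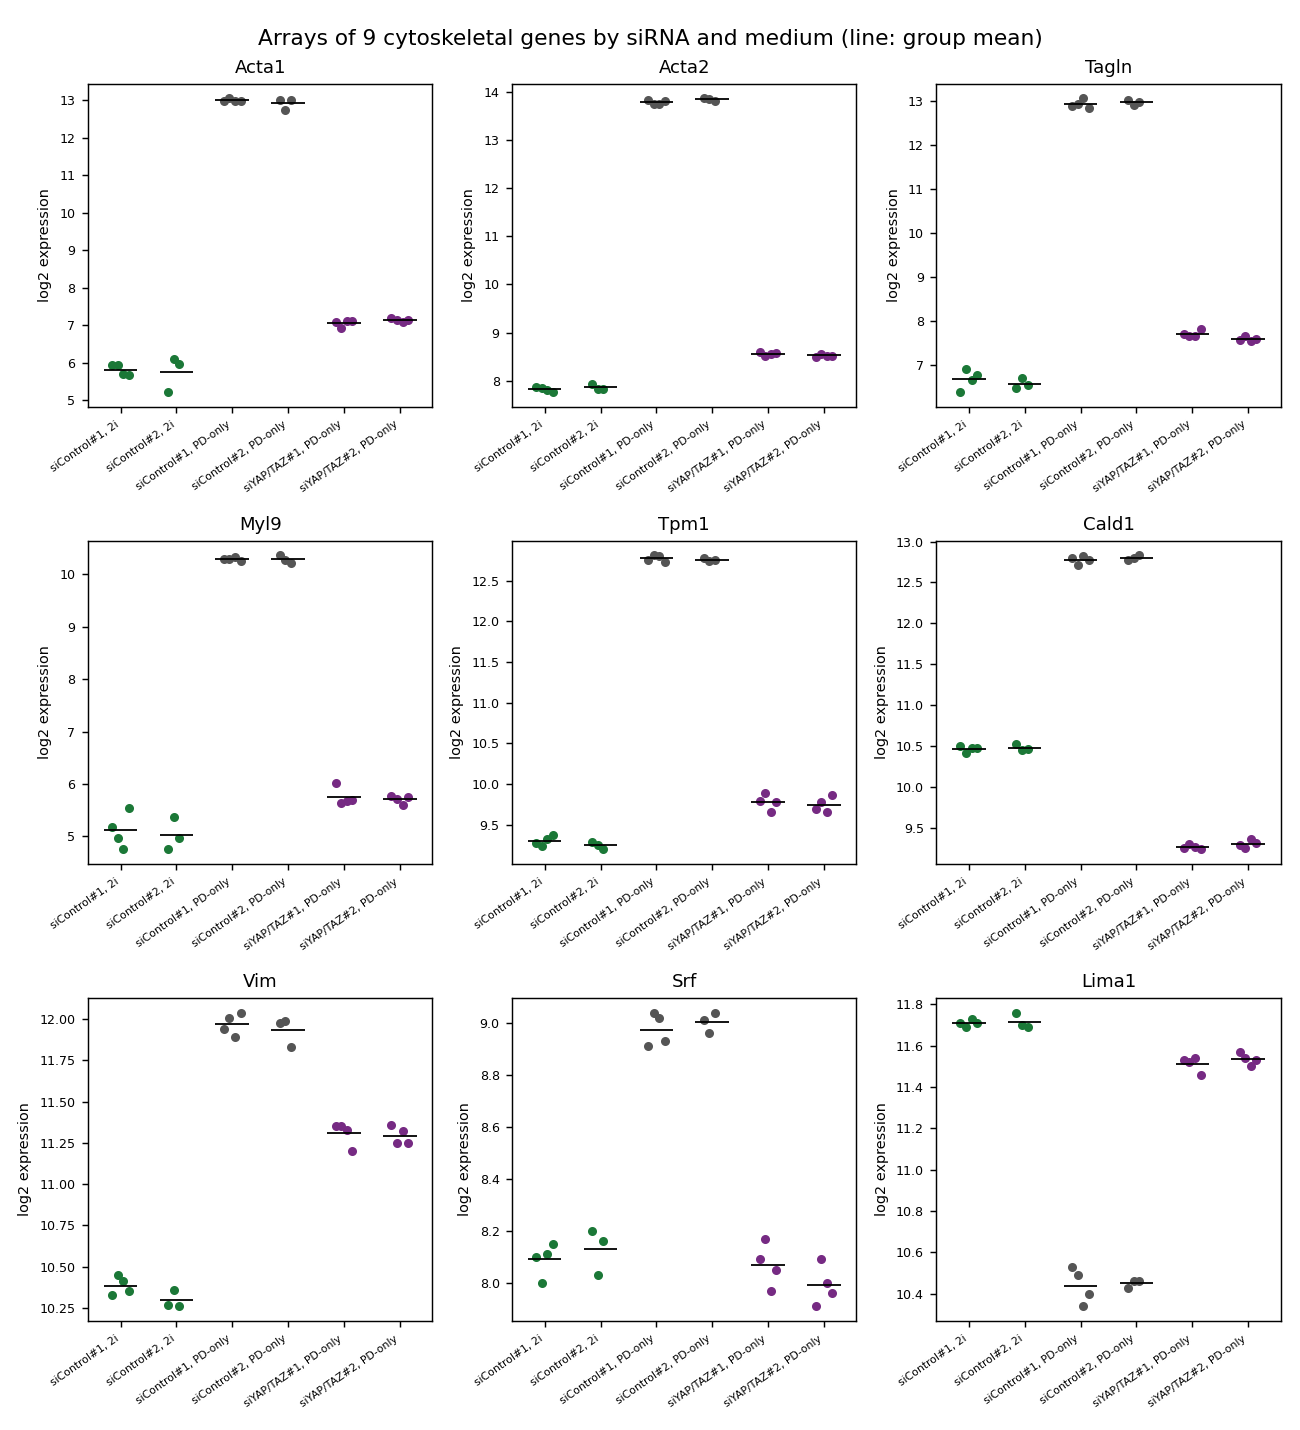
Log2 expression of 9 of the genes on each array (points), by siRNA and medium, with the group mean as a line. Each panel has its own vertical axis, which does not start at 0. The siRNAs of one kind lie together, Acta1, Acta2, Tagln, Myl9, Tpm1, Cald1 and Vim are split into 3 levels, Srf into 2, and Lima1 is lowest in PD-only control.

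Among the tropomyosins and regulators of thin filaments, 5 of 6 were lower in each comparison and Tpm3 was slightly higher. Tpm1 read 12.73, 12.76 and 12.81 in PD-only control, 9.20, 9.28 and 9.37 in 2i control and 9.65, 9.78 and 9.89 with siYAP/TAZ. Tpm2 followed with 11.93, 11.95 and 12.06, then 8.01, 8.19 and 8.33, and then 8.75, 8.80 and 8.84 in the same order. For both genes the 3 arms were separate, and folds in 2i and with siYAP/TAZ were 11.3 and 8.02 for Tpm1 and 13.6 and 9.0 for Tpm2. One dim probe set of Tpm2 was not called (-0.04 and 0.06), whereas the other 2 differed by -3.92 and -2.79 in 2i control. Tpm4 differed by -1.51 ± 0.03 and -1.59 ± 0.03. Tpm3 rose by 0.14 ± 0.02 and 0.11 ± 0.02 on its bright probe set, but its 2 dim probe sets differed by -0.14 and -0.68 in 2i control.

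Cald1, caldesmon, which holds myosin off the filament, was the member that separated siYAP/TAZ most from 2i control in the downward direction. Its arrays lay at 12.71, 12.80 and 12.83 in PD-only control, at 10.41, 10.47 and 10.53 in 2i control and at 9.24, 9.28 and 9.36 with siYAP/TAZ. No arms overlapped, and here the siYAP/TAZ arrays were lowest. The difference from PD-only control was -2.32 ± 0.03 (4.98-fold) for 2i and -3.50 ± 0.02 (11.4-fold) for siYAP/TAZ. Of its 4 other probe sets, 3 were called in the same direction in all comparisons and a dim one was not called. Lmod1, leiomodin, was dim and differed by -0.68 ± 0.09 and -0.69 ± 0.09.

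The crosslinking proteins were lower in 5 of 6 genes in each comparison. Flnc, the filamin best known from muscle, read 8.97, 9.05 and 9.08 in PD-only control, 6.37, 6.40 and 6.78 in 2i control and 6.67, 6.79 and 6.85 with siYAP/TAZ, differences of -2.53 ± 0.06 and -2.27 ± 0.06. The widely expressed filamin Flna differed by -1.33 ± 0.03 and -1.40 ± 0.03. Alpha-actinins and palladin changed by around 2-fold or less: Actn1 by -0.96 and -1.01, Actn4 by -0.57 and -0.76, and Palld by -0.77 and -0.80. Of the other probe sets of Palld, 1 was called higher in 2i control (0.46) and 2 lower, so its direction there depends on the probe set. With siYAP/TAZ all of them were called lower. Lima1, also called EPLIN, which bundles filaments and slows their turnover, went the other way. It lay at 10.34, 10.46 and 10.53 in PD-only control, at 11.69, 11.71 and 11.76 in 2i control and at 11.46, 11.53 and 11.57 with siYAP/TAZ, so that PD-only control was the lowest arm without overlap. Lima1 was 2.41-fold higher in 2i (adjusted p = 4.96e-19) and 2.11-fold higher with siYAP/TAZ (adjusted p = 3.38e-18), and its 4 other probe sets were called in the same direction in both.

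Adhesion and LIM proteins were lower in 9 of 10 genes in 2i control and in 8 of 10 with siYAP/TAZ. Pdlim7, a PDZ and LIM protein that binds tropomyosin, read 9.81, 9.94 and 10.05 in PD-only control, 6.52, 6.79 and 7.02 in 2i control and 7.33, 7.41 and 7.51 with siYAP/TAZ, folds of 8.82 and 5.79. Its relative Pdlim5 differed by -0.96 ± 0.02 and -0.71 ± 0.02. Fhl2, a LIM-only protein, spanned 7.21 to 7.71 in PD-only control, 5.26 to 5.75 in 2i control and 5.43 to 5.93 with siYAP/TAZ, with the lower arms overlapping. Fhl1, another LIM-only protein, read 11.41, 11.44 and 11.51, then 10.70, 10.75 and 10.88, and then 9.89, 9.95 and 10 in these arms. Like Cald1, Fhl1 was lowest with siYAP/TAZ, and its differences from PD-only control were -0.67 ± 0.03 and -1.50 ± 0.03. Its second probe set was not called in either (0.025 and 0.0225), so the Fhl1 change depends on the probe set. Fhl3 had arm means between 5.547 and 5.58 and was not called (0.04 ± 0.06 and 0.01 ± 0.06).

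Vinculin (Vcl), which links integrin and cadherin adhesions to actin, differed by -1.04 ± 0.03 and -1.22 ± 0.02. Tgfb1i1, or Hic-5, a paxillin relative of focal adhesions, differed by -1.76 ± 0.06 and -1.94 ± 0.05, and Csrp1, a LIM protein of smooth muscle, by -1.35 ± 0.03 and -1.57 ± 0.03. Csrp2 differed by -0.14 ± 0.03 in 2i and by -0.03 ± 0.03 with siYAP/TAZ, where it was not called. Zyxin (Zyx), which marks filaments under tension, differed by only -0.25 ± 0.07 and -0.44 ± 0.07 on the probe set used. Its second probe set, almost as bright (means of 6.34 and 6.48 over all arrays), differed by -1.38 and -1.41, so the size of the Zyx change depends on the probe set.

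Of the intermediate filament genes, Vim, vimentin of mesenchymal cells, read 11.83, 11.98 and 12.04 in PD-only control, 10.26, 10.35 and 10.45 in 2i control and 11.20, 11.32 and 11.36 with siYAP/TAZ. The arms were separate, and the siYAP/TAZ arrays lay closer to PD-only control than to 2i control. The Vim difference was -1.61 ± 0.04 in 2i and -0.65 ± 0.04 with siYAP/TAZ. Desmin (Des), the muscle intermediate filament, differed by -0.71 ± 0.06 and -0.58 ± 0.06. The second probe set of Des was not called in either (0.04 and 0.08), so the Des change depends on the probe set. The 4 genes of filament turnover had the smallest medians of any role, -0.36 and -0.38. Capg, which caps filament ends, differed by -1.05 ± 0.04 and -1.36 ± 0.04 and Dstn, destrin, by -0.45 ± 0.03 and -0.65 ± 0.02. Cofilin (Cfl1), which severs filaments, differed by -0.14 ± 0.03 and -0.11 ± 0.02. Profilin (Pfn1), which feeds monomers to growing ends, differed by -0.28 ± 0.04 in 2i and was not called with siYAP/TAZ (0.01 ± 0.03).

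Srf itself read 8.91, 9.01 and 9.04 in PD-only control, 8.0, 8.11 and 8.20 in 2i control and 7.91, 8.03 and 8.17 with siYAP/TAZ. PD-only control was above all other arrays, and 2i control and siYAP/TAZ overlapped. The differences were -0.88 ± 0.04 (1.84-fold) and -0.96 ± 0.04 (1.94-fold), and its second probe set was called in the same direction in both, at -0.57 and -0.28. That probe set was also called between siYAP/TAZ and 2i control (0.29), where the one used was not.

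siYAP/TAZ was then compared with 2i control directly. Here 18 of the 45 genes were higher with siYAP/TAZ, against 25.5% of all genes, 14 were lower, against 22.8%, and 13 were not called. Acta1 and Tagln were higher by 2-fold or more (0.632% of all genes) and Cald1 was lower by 2-fold or more (0.879%). The median difference of the members was -0.01, beside 0.015 over all genes. Arrays of the arms did not overlap for 13 members with siYAP/TAZ above 2i control (14.9% of all genes) and for 8 members with it below (13.3%). Lower calls made up 31.1% of the members and higher calls 40.0%.

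Between siYAP/TAZ and 2i the roles were mixed: of the actins 2 were higher and 1 lower, of the myosin II genes 2 and 2, and of the tropomyosins and thin filament regulators 2 and 2. Acta1 was higher by 1.31 ± 0.09 (adjusted p = 2.51e-10), Tagln by 1.02 ± 0.06 (adjusted p = 1.11e-11), Acta2 by 0.70 ± 0.02, Myl9 by 0.66 ± 0.10, Pdlim7 by 0.61 ± 0.06 and Tpm2 by 0.60 ± 0.04. All 5 calponin and transgelin genes were higher, but Cnn3 by 0.06 ± 0.02 with overlapping arrays, and its call was lost in several alternative settings and without any one of 6 single arrays. Vim was higher by 0.96 ± 0.04 and Pfn1 by 0.29 ± 0.03. Without 1 array of siControl#1 in 2i (replicate A) the Tagln difference was 0.975, and without 1 array of siControl#2 in 2i (replicate A) it was 0.9975, so that Acta1 alone then passed 2-fold. The higher level of Acta2 rested on its bright probe set, since the next one differed by -0.21.

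Below 2i control, Cald1 differed by -1.19 ± 0.02 (adjusted p = 2.71e-18) and Fhl1 by -0.82 ± 0.03 (adjusted p = 1.16e-15), and the other 12 members called lower differed by between -0.30 (Capg) and -0.08 (Tpm4). They were Capg, Csrp1, Dstn, Zyx, Lima1, Actn4, Tgfb1i1, Vcl, Myl6, Myh9, Actb and Tpm4. The second probe set of Fhl1 was not called here (-0.0025), nor was that of Vcl (0.15). With siControl#1 and siYAP/TAZ#1 alone the calls of Actb, Csrp2, Fhl2, Myh9, Tgfb1i1 and Zyx were lost. With siControl#2 and siYAP/TAZ#2 alone those of Cnn3, Csrp2, Myh9, Myl6, Tpm4 and Zyx were lost. Fhl2, called higher by 0.22, stood at 0.01 with the first siRNAs alone, and leaving out any one of several single arrays also lost its call. Actc1 (0.12 ± 0.07), Actg1 (0.02 ± 0.02), Actn1 (-0.05 ± 0.03), Flna (-0.06 ± 0.03) and Srf (-0.08 ± 0.04) were not called. A difference that was not called does not show that the levels were alike.

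**Figure D5:**
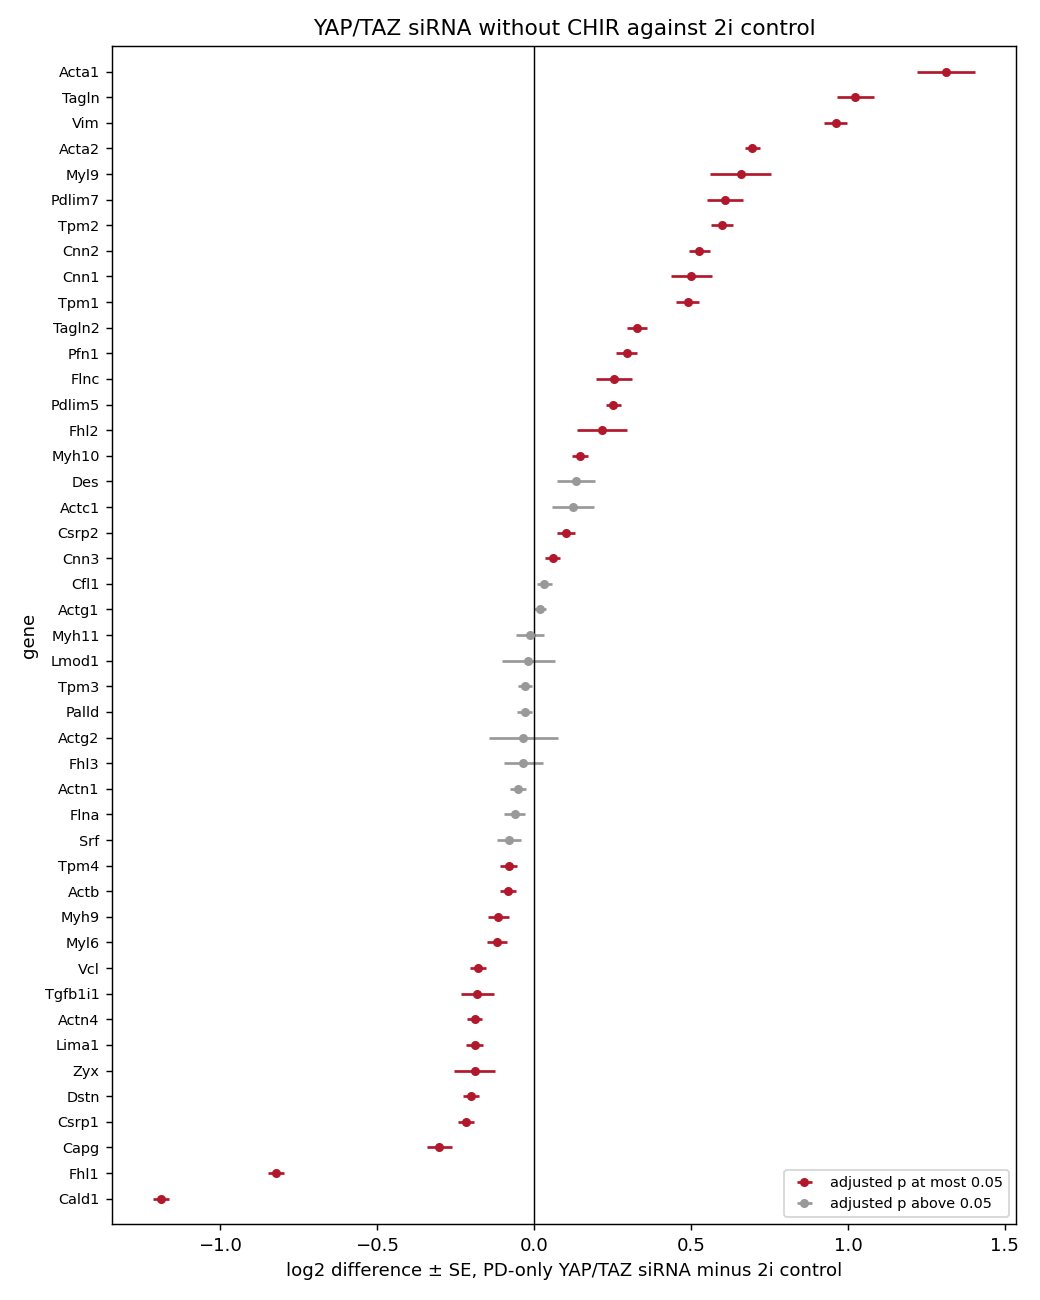
Log2 difference of PD-only siYAP/TAZ minus 2i control for each of the 45 genes (points, with SE bars), ordered by size. Red marks an adjusted p of at most 0.05 and grey a larger one. The points run from -1.19 (Cald1) to 1.31 (Acta1), and 13 genes are grey.

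Across the 26 members with more than 1 probe set, the 58 probe sets not used were called in the direction of the one used in 46 cases for 2i control and in 44 for siYAP/TAZ, each against PD-only control. The opposite direction was called in 4 cases for 2i (Myh11, Palld and Tpm3) and 2 for siYAP/TAZ (Myh11 and Tpm3), and the remaining 8 and 12 were not called. Between siYAP/TAZ and 2i control 21 of the 58 were called in the direction of the one used, 1 in the opposite direction (Acta2) and 29 were not called. The rest were called where the probe set used was not, those of Cnn3 among them. All these counts come from a fit over all probe sets with 1 symbol. In it the call of Cnn3 between siYAP/TAZ and 2i control, made in the fit over genes, was lost.

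Other genes of the pathway were read from lists of known names and are given by their counts, to be read against the shares of all genes called (26.7% lower and 31.3% higher in 2i control, 26.3% and 35.5% with siYAP/TAZ). Of 6 measured Srf cofactors, 3 were lower and 1 higher in 2i control, and 4 were lower and 2 higher with siYAP/TAZ. Myocd, myocardin, was dim and differed by -1.25 ± 0.07 and -1.09 ± 0.07. Mrtfb (MRTF-B) differed by -0.34 ± 0.03 in 2i control. Elk3, a ternary complex factor, differed by -1.12 ± 0.07 between siYAP/TAZ and PD-only control. It was not called in 2i control (0.01 ± 0.07). Of 10 immediate early genes, the targets that Srf shares with ternary complex factors, 6 were lower and 1 higher in 2i control and 5 were lower and 2 higher with siYAP/TAZ. Fos differed by -3.60 ± 0.09 and -3.52 ± 0.09, with a mean of 9.45 in PD-only control, and Junb by -1.86 ± 0.10 and -1.59 ± 0.10.

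None of 15 genes of the Arp2/3 complex and branched actin changed by 2-fold or more, which is also the case for most of all genes. There 10 were lower and 3 higher in 2i control and 8 were lower and 3 higher with siYAP/TAZ, led by Arpc5 (-0.89 ± 0.03 and -0.85 ± 0.03).

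Among 38 further filament-binding genes, 21 were lower and 6 higher in 2i control and 22 were lower and 10 higher with siYAP/TAZ. Gsn, gelsolin, which severs filaments, differed by -4.10 ± 0.08 and -4.17 ± 0.07, and Nexn, nexilin, by -3.05 ± 0.09 and -2.73 ± 0.09. Cotl1, a coactosin-like protein, was higher with siYAP/TAZ than in 2i by 1.61 ± 0.04. Against PD-only control Cotl1 was lower in 2i (-1.07 ± 0.04) and higher with siYAP/TAZ (0.54 ± 0.04). Focal adhesion genes were lower in 21 of 27 in 2i control and in 22 of 27 with siYAP/TAZ, with medians of -0.51 and -0.55. Parva (alpha-parvin) differed by -2.61 ± 0.10 in 2i control, Pdlim2 by -2.57 ± 0.09 and -2.84 ± 0.08, and Lpp, a zyxin relative, by -3.55 ± 0.06 with siYAP/TAZ. Between siYAP/TAZ and 2i control Lpp differed by -1.04 ± 0.06.

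Markers of other cell types that hold contractile genes were read beside these results, against the same shares of all genes. Of 7 smooth muscle markers, of which Myh11, Lmod1 and Des are themselves members, 5 were lower and 2 higher in 2i control and 6 were lower and 1 higher with siYAP/TAZ. Their mean level per array ranged from 6.29 to 6.49 in PD-only control, from 5.81 to 5.87 in 2i control and from 5.55 to 5.70 with siYAP/TAZ. Of 14 skeletal and cardiac muscle markers 5 were lower and 4 higher in 2i control and 5 were lower and 5 higher with siYAP/TAZ, and the mean level was 5.92 to 6.03, 5.32 to 5.40 and 5.29 to 5.39. The median difference of these markers was 0.002 in 2i control and 0.08 with siYAP/TAZ, and the highest was 0.80 and 0.50. By 2-fold or more, 4 were lower in each comparison. Tnnc1, cardiac troponin C, differed by -4.31 ± 0.06 and -4.16 ± 0.06 and Myl4, an atrial light chain, by -2.95 ± 0.08 and -2.65 ± 0.08. The lineage regulators Myod1, Myog, Myf5 and Nkx2-5 had means under 6.635 in every arm and were not called in 2i control.

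Fibroblast markers were lower in 8 of 10 genes in 2i control and in 6 of 10 with siYAP/TAZ, and 1, Fbln1, was higher in both (0.72 ± 0.04 and 1.49 ± 0.04), with mean levels of 6.72 to 6.87 in PD-only control, 5.15 to 5.35 in 2i control and 5.30 to 5.46 with siYAP/TAZ. Col1a2 and Col1a1, the collagen I chains, differed by -4.56 ± 0.08 and -4.01 ± 0.09 in 2i control, whereas Lum, lumican, lay between 3.13 and 3.23 as an arm mean. Simple epithelium and trophectoderm markers were lower in 6 of 8 genes and in 5 of 8, with mean levels of 8.67 to 8.74, 6.03 to 6.15 and 6.46 to 6.60, led by the keratins Krt8 (-6.67 ± 0.03 and -5.80 ± 0.03) and Krt18 (-6.04 ± 0.04 and -5.65 ± 0.04). By 2-fold or more, 5 of the 8 were lower in 2i control and 4 with siYAP/TAZ, against 4.12% and 4.47% of all genes. The keratins of the list are Krt8, Krt18 and Krt7, so other markers were among those lower. Cdx2, a trophectoderm regulator, was the one marker higher in both (0.55 ± 0.07 and 1.07 ± 0.07), and Tfap2c was higher with siYAP/TAZ (0.71 ± 0.06). Elf5 of the trophectoderm had arm means from 3.54 to 3.65. Of 8 primitive endoderm markers, 4 were lower in 2i control and 3 with siYAP/TAZ, and Lama1 was higher in both (0.59 ± 0.05 and 0.43 ± 0.05), at mean levels of 5.62 to 5.75, 5.0 to 5.17 and 4.97 to 5.15. Dab2 differed by -3.05 ± 0.10 and -3.57 ± 0.09. In 2i control Gata6, Foxa2 and Pdgfra were lower too, while Gata4, Sox17 and Sox7 were not called. The part of such cells in the levels of the contractile genes was not tested.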

How the data were processed

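Total RNA (Trizol) was biotin-labelled (3′ in vitro transcription) for 1-colour Affymetrix arrays, per the labels' protocols. The deposited table holds 45101 probe sets; per the submitters' processing notes the authors' values were made with RMA, and they were taken as log2 from that tool and their range of 2.09 to 14.91. RMA quantile-normalises arrays in its usual form, so shifts in a cell's total RNA are not visible. Of the probe sets, 34945 carry 1 gene symbol (18193 genes), 932 several and 9160 none listed; 64 control sets stayed out of the gene tests.

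A model with a mean for each of the 6 groups was fitted over all genes with limma 3.58.1 in R 4.3.3 (16 residual and 3.1 prior degrees of freedom). Arms are averages of their siRNA groups weighted equally. The call was a Benjamini-Hochberg adjusted p of at most 0.05 over all genes, with a second rule of an absolute log2 difference of at least 1. The test was checked on simulated data. Actb control probe sets were compared with exact permutation tests.

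The members, lists and alternatives were chosen with earlier results of these data known. All 45 members are given; array ranges were allowed for members past both rules and for Srf, Actb and Actg1, and of each other list up to 2 called genes with the largest change per comparison were named, with markers not called or at a low level added after their values were seen. The full set of members with a CArG box is shown, beyond the 3 to 5 of the rule. Alternatives covered the probe set, dim genes, normalisation, variance model, array weights, arrays fitted, siRNA handling, replicate letter, RNA quality covariates, a stricter call and each array left out. One further list of genes is not reported here.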

Additional observations from a re-analysis of the deposited data

Results flagged for a closer look

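In groups of 4 arrays, a gene was listed when 1 array stood apart from the other 3 by most of the group's range (Dixon's criterion). Of 180 groups tested, 14 (7.78%) met it, and the groups of 3 arrays were not tested. Chance gives about 1 in 20 for continuous values. The values here carry 2 decimals and several listed groups hold ties, so the share found cannot be set against that rate. All 14 are small steps within a group. In siControl#1 PD-only, Acta1 read 13.05 in replicate B (others 12.97 to 12.98), Cfl1 read 13.27 in replicate B (13.19 to 13.20), Actg1 read 14.13 in replicate D (14.18 to 14.19) and Actn1 read 12.34 in replicate C (12.38). In siControl#1 2i, Myl6 read 6.99 in replicate A (7.02).

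With siYAP/TAZ#1, Actc1 read 5.71 in replicate D (others 6.01 to 6.05), Vim read 11.20 in replicate D (11.33 to 11.35) and Fhl3 read 5.62 in replicate B (5.55). With siYAP/TAZ#2, Myh9 read 10.80 in replicate D (10.70 to 10.71), Csrp2 read 11.38 in replicate D (11.31 to 11.32), Flna read 9.10 in replicate A (9.15), and replicate C gave 6.74 for Flnc (6.79), 9.89 for Fhl1 (9.95) and 5.44 for Fhl3 (5.55 to 5.57).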

How the results depend on the processing

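With each of the 22 arrays left out in turn, the members lower in 2i control numbered 41 to 41 and those higher 3 to 3, with 24 to 24 and 1 to 1 past 2-fold. For YAP/TAZ siRNA against PD-only control they numbered 39 to 39 and 3 to 3, with 24 to 25 and 1 to 1 past 2-fold. Against 2i control 14 to 15 were lower and 16 to 19 higher, with 1 to 1 and 1 to 2 past 2-fold, the lower count without replicate A of siControl#1 or of siControl#2 in 2i. Between siRNAs of one kind 0 to 0 members were called. Taking the mean of all probe sets of a gene left 1 member higher in 2i control, 1 higher with YAP/TAZ siRNA and 0 of these past 2-fold, and Myh11 then stood at -0.38 and -0.28 and Tpm3 at -0.0764 for 2i. With probe sets of a cross-hybridising type set aside, Tpm3 stood at -0.14 and -0.0838 in these comparisons, Tpm2 at 0.0646 with YAP/TAZ siRNA, and Acta2 at -0.21 and Actb at 0.0825 between YAP/TAZ siRNA and 2i control. These cases follow from reading another, mostly dimmer, probe set. Arrays with the same replicate letter showed little shared deviation (median correlations from -0.02 to 0.04, and 9 of 22 arrays closest to their own letter), with 4 of 6 for letter C, and the letters were not taken to pair the arrays. With the replicate block 41 members were lower and 3 higher in 2i control and 39 and 3 with YAP/TAZ siRNA. Against 2i control 14 were lower and 17 higher, the call of Cnn3 being lost. Requantile-normalising or median-centring moved the median of all genes by at most 0.03. The other settings left each count within 1.5 times the one reported.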
